A study of Mus musculus with 12 samples.

Results

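The genes of the translation initiation factors were followed in 12 mouse kidneys, 4 control kidneys and 8 kidneys taken after an episode of renal ischemia. Members were the rows of the count table whose symbol begins with Eif and a digit from 1 to 6 and whose mean level over the 12 kidneys was 1 CPM or more, where CPM is the count scaled to a library total of 1000000. Of the 23420 genes in the table, 59 matched by symbol and 55 passed the minimum, of which 18 carry an eIF2 symbol, 12 an eIF3 symbol, 15 an eIF4 symbol and 10 an eIF1, eIF5 or eIF6 symbol. The symbols Eif2c1 to Eif2c4 are older names of the 4 Argonaute genes, which bind small RNAs and are not initiation factors, so 51 members remain without them.

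All mice were C57BL/6J males, adult by the study's methods. The study's methods describe the control kidneys as normal kidneys taken at nephrectomy, while its results speak of sham surgery, so what the controls underwent is not settled here. The design text counts mice of each group separately, and whether any control kidney was the opposite kidney of an ischemic animal is not given in the sources used here. Every sample, the controls included, is labelled with 20 min of ischemia by a clamp on the vessels of the kidney and 24 h until collection, which goes against the group label of the controls. The labels of the 8 ischemic kidneys also contradict each other. Ischemia set A holds 4 kidneys titled as anaesthetised whose group field says conscious, and ischemia set B holds 4 kidneys titled as conscious whose group field says anesthesia, so no direction was assigned to anaesthesia. The comparisons asked which initiation factor mRNAs differ after ischemia, and whether they differ between the ischemic sets. Both comparisons with control use the same 4 control kidneys.

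Translation of most mRNAs begins when the factor eIF2, loaded with GTP, brings the initiator tRNA to the small ribosomal subunit, which carries the large scaffold eIF3 as well as eIF1, eIF1A and eIF5. The eIF4F complex recruits this assembly to the capped end of the mRNA. In it, eIF4E binds the cap, eIF4G is the scaffold and eIF4A is the RNA helicase. Cells lower initiation along 2 well known routes, by kinases that phosphorylate eIF2 alpha and so block its exchange factor eIF2B, and by the eIF4E-binding proteins (4E-BPs), which hold eIF4E away from eIF4G until the kinase complex mTORC1 phosphorylates them. The injured renal tubule is a well known site of such stress responses. The values below are mRNA levels and carry no information on phosphorylation or protein.

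The total count per kidney lay between 15367342 and 44793350, and 3 counts, used as the detection floor, stood for between 0.067 and 0.195 CPM, an allowance for counting error only. No pair of replicates within a group differed by as little as sampling noise (every chi-square was at least 48.9 times its degrees of freedom). The largest was 136 times, between set B replicates 1 and 4. Set B replicate 4 also had the lowest total count. The kidney label was checked against marker genes. The 6 proximal tubule markers summed to between 6339 and 7173 CPM in the control kidneys, 679.96 and 1285 CPM in set A and 410.4 and 1300.4 CPM in set B, and all 6 fell in both sets. The 4 markers of injured tubule summed to between 0 and 9.19 CPM in controls (Havcr1 and Lcn2 at the floor in all 4), 152 and 209 CPM in set A and 131 and 164 CPM in set B, and all 4 rose. Of the 2 markers of the thick ascending limb, Slc12a1 fell (log2 fold change -3.07 and -2.56) and Umod was not called, and their sum lay between 1556 and 1658 CPM in controls, 272 and 369 CPM in set A and 254 and 756 CPM in set B. Of the 3 fibroblast markers, Col1a1 and Col3a1 rose in both sets and Pdgfrb was not called, and the 3 summed to between 377 and 486 CPM in controls, 898 and 2519 CPM in set A and 1149 and 2394 CPM in set B. The erythroid sum lay between 58.2 and 119 CPM in controls, 25.2 and 48.8 CPM in set A and 14.5 and 31.5 CPM in set B, with Beta-s lower in both sets (-1.24 and -1.97), and the cycling gene Top2a rose (1.47 and 1.81). The cycling sum lay between 7.47 and 10.4 CPM in controls, 20.7 and 30.8 CPM in set A and 21.8 and 39.9 CPM in set B. The endothelial sum was between 40.2 and 43.4 CPM in controls, 21.97 and 32.1 CPM in set A and 21.6 and 39.7 CPM in set B, with no marker called. Markers of fat were at 0 and those of the adrenal gland at most 1.55 CPM. The 8 leukocyte markers summed to at most 16.4 CPM in any kidney, and Cd79a and S100a8 were at the floor in every group. The leukocyte sums overlapped between the groups, with Cd3e alone of the 5 tested called lower in each set. Cd3e was at the floor in both ischemic sets, and its average level in the fit was -0.52 on the log2 CPM scale. The sums of the proximal tubule, injured tubule, thick ascending limb, fibroblast, erythroid, endothelial and cycling lists did not overlap between either ischemic set and the controls. The part of these lists in the results below was not tested. In whole kidney RNA, fewer cells of a type and less RNA per cell cannot be told apart.

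After ischemia, most initiation factor genes were not called, more of the called ones rose than fell, and those that fell lay in the eIF4 family apart from Eif3h. In set A against control, 15 of the 55 members were higher and 5 lower at an adjusted p below 0.05 (edgeR's quasi-likelihood test, adjusted by Benjamini-Hochberg over 11664 genes), where 10.5% of all genes tested were called higher and 11.7% lower, 22.3% in all. In set B against control, 12 were higher and 3 lower, where 10.9% of all genes were called higher and 11.9% lower, 22.8% in all. The 5 lower calls of set A became 3 without control replicate 1, 2 or 3 or set A replicate 1, and 2 without set A replicate 3. All 55 members passed the filter on low counts. Fold changes are given with the standard error (SE) of the edgeR fit and its adjusted p. The median log2 fold change of the members was 0.32 for set A and 0.30 for set B, beside -0.02 over all genes in each set. In both sets, which share their controls, 11 members rose and 3 fell, where 9.07% of all genes rose and 9.49% fell in both. A further 6 were called in set A only, 1 (Eif2b5) in set B only, and 34 in neither. A call in a single set was not tested as a difference between the sets in any other way than by the direct comparison given last.

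The eIF4 family had 5 members higher and 4 lower of 15 in set A and 4 higher and 3 lower in set B. In the eIF2 family, 4 of 18 rose in set A, 2 in set B, and none fell, where the shares of all genes called higher were 10.5% and 10.9%. In the eIF3 family, 4 of 12 were higher in each set and 1 was lower, in set A. Among the 10 other members, 2 were higher in each set and none was lower. No Argonaute gene was called in any comparison, and leaving them out gave medians of 0.35 and 0.34.

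**Figure D1:**
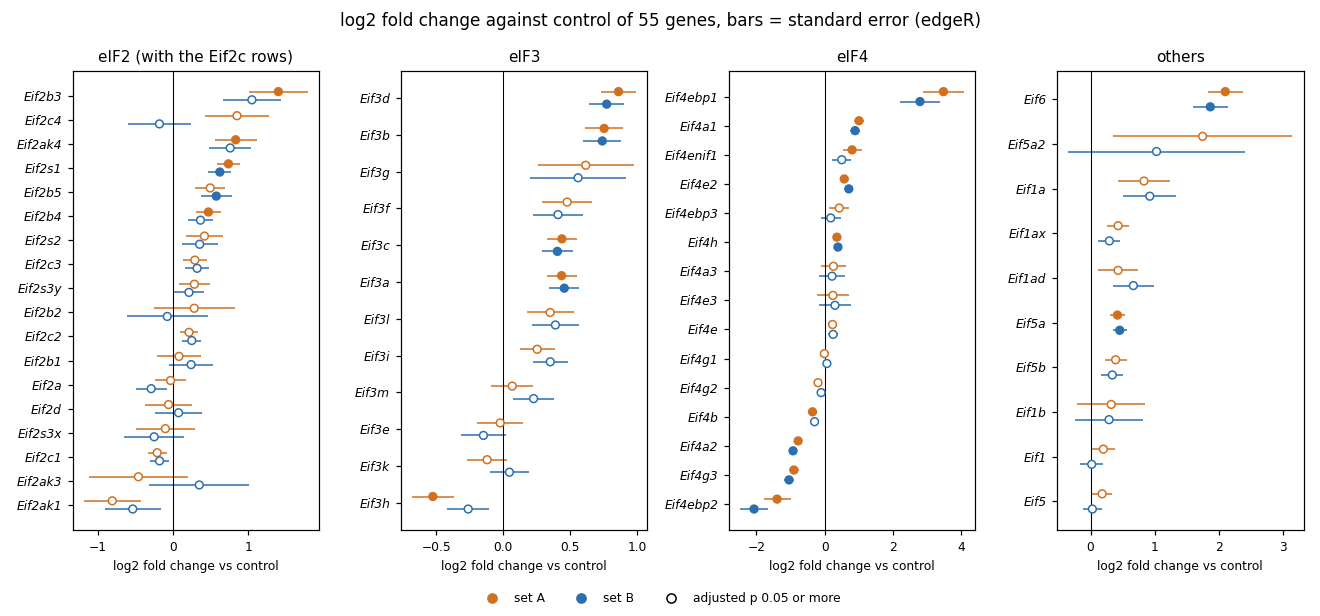
log2 fold change against the control kidneys (x axis) for each of the 55 members (y axis) in set A (orange) and set B (blue), by family, with the standard error of the edgeR fit as bars and filled points for an adjusted p below 0.05. Eif4ebp1 (3.48 and 2.79) and Eif6 (2.10 and 1.87) stand farthest to the right among the filled points, and Eif4ebp2 (-1.40 and -2.07) farthest to the left.

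The helicase eIF4A is made from 2 closely related cytoplasmic genes, Eif4a1 and Eif4a2, which moved in opposite directions. Eif4a1 measured 223, 316, 299 and 262 CPM in control kidneys, 505, 655, 592 and 504 CPM in set A kidneys and 555, 601, 493 and 426 CPM in those of set B. Every ischemic kidney lay above every control kidney. The log2 fold change of Eif4a1 was 1.01 ± 0.15 in set A (adjusted p = 3.49e-05) and 0.89 ± 0.15 in set B (adjusted p = 0.00013). Eif4a2, per exon length the more abundant of the pair in control kidney, measured 1384, 1282, 1240.2 and 992 CPM in control kidneys, 611, 759.8, 806 and 727 CPM in set A kidneys and 690.1, 677, 625 and 622 CPM in those of set B. Here every ischemic kidney lay below the lowest control. For Eif4a2 the log2 fold changes were -0.78 ± 0.12 in set A (adjusted p = 5.82e-05) and -0.93 ± 0.12 in set B (adjusted p = 8.03e-06). Eif4a3, a relative that belongs to the exon junction complex rather than to eIF4F, ranged from 7.70 to 17.4 CPM over the 12 kidneys and was not called.

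Within a kidney the ratio of these genes does not depend on library scaling. The log2 ratio of Eif4a1 to Eif4a2 counts was -2.16 ± 0.32 in controls, -0.37 ± 0.15 for set A and -0.34 ± 0.15 for set B (SD, n = 4 each). The groups of ischemic kidneys did not overlap with the controls, and the ratio was 3.46-fold higher in set A and 3.52-fold higher in set B. A two-sided exact permutation test of 4 against 4 gave p = 0.0286 for each set, the smallest it can give, and 0.107 after adjustment over 15 ratio comparisons, so neither passed the threshold. Scaled to exon length, Eif4a1 made up 16.5, 23.3, 22.9 and 24.5% of the pair's counts in the control kidneys, 50.5, 51.5, 47.5 and 46.0% in set A and 49.8, 52.2, 49.3 and 45.8% in set B. The shares in the ischemic sets overlapped with each other. How reads shared by the related genes were counted is not given in the sources used here, and both genes host small nucleolar RNA genes on the same strand. Eif4a2 also overlaps exons of Rfc4 on the other strand.

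The 4E-BPs, which compete with eIF4G for eIF4E, also moved apart. Eif4ebp1 measured 0.0491, 4.70, 3.70 and 7.54 CPM in control kidneys, 44.3, 55.6, 48.2 and 38.1 CPM in set A kidneys and 34.4, 26.3, 20.6 and 33.9 CPM in those of set B. Control replicate 1 had 1 count of this gene, at the floor, and the highest control lay below the lowest ischemic kidney. The log2 fold change of Eif4ebp1 was 3.48 ± 0.61 in set A (adjusted p = 0.000229) and 2.79 ± 0.59 in set B (adjusted p = 0.00144), and the mean level was 11.6-fold and 7.21-fold that of the controls. In limma-trend the log2 fold changes were 4.48 and 3.77. Eif4ebp2, which per exon length stood above Eif4ebp1 in control kidney, measured 62.4, 57.5, 21.4 and 43.9 CPM in control kidneys, 30.8, 17.8, 12.8 and 9.81 CPM in set A kidneys and 14.8, 5.03, 14.8 and 9.96 CPM in those of set B. The lowest control was replicate 3, which lay below set A replicate 1 and above the other ischemic kidneys. Its log2 fold change was -1.40 ± 0.40 in set A (adjusted p = 0.0142) and -2.07 ± 0.41 in set B (adjusted p = 0.000748). The set A call was lost without control replicate 1, control replicate 2 or set A replicate 3, with adjusted p between 0.0527 and 0.0581. Eif4ebp3 ranged from 14.0 to 36.7 CPM over the 12 kidneys and was not called.

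In shares of the 3 genes' counts per exon length, Eif4ebp1 made up 0.0724, 4.56, 4.78 and 9.24% in control kidneys, 36.1, 40.4, 35.1 and 25.4% in set A kidneys and 32.7, 24.6, 30.5 and 25.4% in those of set B. Eif4ebp2 made up 34.9, 21.2, 10.5 and 20.4% in control kidneys, 9.55, 4.93, 3.54 and 2.48% in set A kidneys and 5.35, 1.78, 8.31 and 2.84% in those of set B. Neither of these shares overlapped between the controls and either ischemic set. Eif4ebp3 held the largest share in every kidney, 65.00, 74.3, 84.7 and 70.3% in control kidneys, 54.3, 54.6, 61.3 and 72.2% in set A kidneys and 61.96, 73.7, 61.2 and 71.7% in those of set B, and its groups overlapped. The log2 ratio of Eif4ebp1 to Eif4e was -7.38 ± 3.27 in controls, -2.79 ± 0.25 for set A and -3.50 ± 0.52 for set B (SD, n = 4 each). This ratio was higher by 4.59 in set A and by 3.89 in set B on the log2 scale, without overlap, with an exact permutation p of 0.0286 and an adjusted p of 0.107 for each. Without control replicate 1, these differences were 2.97 and 2.27. Eif4enif1, which encodes a protein that carries eIF4E into the nucleus, measured 11.3, 16.4, 18.5 and 21.8 CPM in control kidneys, 25.03, 40.7, 24.9 and 30.7 CPM in set A kidneys and 27.1, 28.6, 21.1 and 21.3 CPM in those of set B. It rose in set A, with a log2 fold change of 0.80 ± 0.28 (adjusted p = 0.043), and was at 0.50 ± 0.28 in set B (adjusted p = 0.229). The set A call was lost in 8 of the 12 fits that left out a kidney (control replicates 1, 2 and 3, set A replicates 2 and 4, and set B replicates 1, 2 and 3), with adjusted p between 0.0516 and 0.155, and also with no filter on low counts and with the replicate block (0.0608 and 0.0611).

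**Figure D2:**
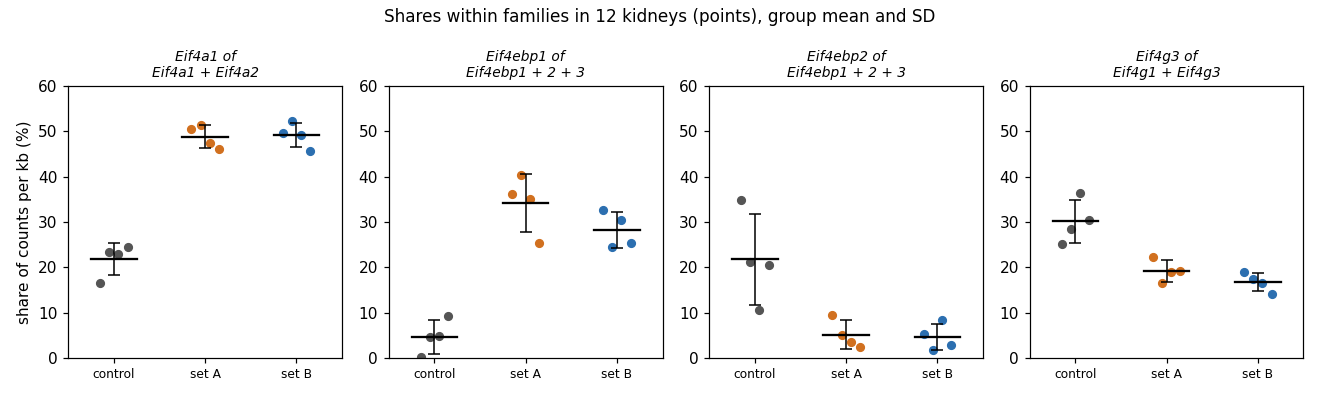
Share (%, y axis) of counts per kilobase of exon within a family in each kidney of the 3 groups (x axis); points are kidneys, thick lines the mean and bars the SD (n = 4). Eif4a1 averaged 21.8% of the eIF4A pair in controls against 48.9% and 49.3% in sets A and B, and Eif4ebp1 averaged 4.66% of the 4E-BPs in controls against 34.3% and 28.3%.

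Eif4e, the principal cap-binding factor, measured 236, 256, 313 and 264 CPM in control kidneys, 312, 307, 337 and 322 CPM in set A kidneys and 348, 373, 328 and 241 CPM in those of set B. The groups overlapped, and Eif4e was not called in set A (log2 fold change 0.23 ± 0.14, adjusted p = 0.31) or set B (0.25 ± 0.14, adjusted p = 0.258). Eif4e2, which encodes the cap-binding relative 4EHP that does not bind eIF4G and is known for repressing mRNAs, measured 220.04, 253, 226 and 194 CPM in control kidneys, 306, 345, 333 and 368 CPM in set A kidneys and 394, 385, 372 and 330.4 CPM in those of set B. It rose without overlap in both sets, by a log2 fold change of 0.57 ± 0.12 in set A (adjusted p = 0.00158) and 0.71 ± 0.12 in set B (adjusted p = 0.000226). Eif4e3 stayed between 3.59 and 15.9 CPM and was not called, and Eif4e1b, a germline relative, had no count in any kidney.

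Among the scaffolds, Eif4g3 fell and the others did not pass the test. Eif4g3, a relative of eIF4G1 that can take its place in eIF4F, measured 317, 347, 488 and 383 CPM in control kidneys, 221, 222, 200.2 and 196 CPM in set A kidneys and 219, 201, 178 and 159 CPM in those of set B. All 8 ischemic kidneys lay below all 4 controls. Its log2 fold change was -0.90 ± 0.15 in set A (adjusted p = 0.000156) and -1.04 ± 0.15 in set B (adjusted p = 3.23e-05). Eif4g1 measured 621, 575, 562 and 579 CPM in control kidneys, 510.1, 745, 567 and 543 CPM in set A kidneys and 620.2, 629, 591 and 643 CPM in those of set B, and its groups overlapped (log2 fold change -0.01 ± 0.12 in set A, adjusted p = 0.981 and 0.07 ± 0.12 in set B, adjusted p = 0.794). Of the counts per exon length of Eif4g1 and Eif4g3 together, Eif4g3 made up 25.2, 28.5, 36.5 and 30.4% in control kidneys, 22.2, 16.4, 18.9 and 19.2% in set A kidneys and 18.9, 17.4, 16.6 and 14.1% in those of set B. Controls and ischemic kidneys did not overlap in this share.

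Eif4g2 encodes DAP5, which lacks the eIF4E-binding part of eIF4G and serves initiation independent of the cap. It measured 20732, 18431, 23946 and 18949 CPM in control kidneys, 16929.6, 18607, 16391 and 20985 CPM in set A kidneys and 20891, 21315, 18234 and 17108 CPM in those of set B. By counts, which grow with transcript length, it ranked first among all genes of the table in each of the 4 control kidneys and between rank 2 and rank 4 in the ischemic kidneys. The ischemic kidneys overlapped with the controls, and Eif4g2 was not called (-0.19 ± 0.11 in set A, adjusted p = 0.256 and -0.10 ± 0.11 in set B, adjusted p = 0.61). The members together took between 3.35% and 4.23% of all counts per kidney. The log2 ratio of Eif4g2 to Eif4g1 was 5.13 ± 0.19 in controls, 4.96 ± 0.27 for set A and 4.96 ± 0.16 for set B (SD, n = 4 each), with an exact permutation p of 0.371 for set A and 0.314 for set B, each 0.557 after adjustment.

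The cofactors of the helicase went in opposite directions at small sizes. Eif4b, which stimulates eIF4A, measured 2399.97, 2163, 2302 and 2017 CPM in control kidneys, 1624, 2007, 1671 and 1755 CPM in set A kidneys and 2078, 1937, 1931 and 1388 CPM in those of set B. The highest set A kidney lay just below the lowest control, and set B overlapped with the controls. Eif4b fell in set A (-0.36 ± 0.12, adjusted p = 0.0428) and was at -0.30 ± 0.12 in set B (adjusted p = 0.0943). Eif4h, its relative, measured 182, 201, 228 and 220.3 CPM in control kidneys, 285, 243, 271 and 286 CPM in set A kidneys and 266, 291, 268 and 284 CPM in those of set B. Eif4h rose without overlap in set A (0.36 ± 0.12, adjusted p = 0.0409) and set B (0.39 ± 0.12, adjusted p = 0.026). These calls stood close to the threshold. That of Eif4b was lost without any 1 of the 4 controls or of set A replicates 1, 3 and 4 (adjusted p between 0.0593 and 0.166), and under relative log expression (RLE) scaling, a filter of over 1 CPM in 4 kidneys, the replicate block and limma-trend (0.0511 to 0.0587). That of Eif4h in set A was lost without any 1 of control replicates 1, 2 and 4, set A replicates 1, 3 and 4 and set B replicates 1, 2 and 3 (0.0502 to 0.131), with no filter and with the replicate block (0.0611 to 0.0820). In set B it was lost without any 1 of control replicates 1 and 2 and set B replicates 1, 2 and 3 (0.0502 to 0.107) and with no filter (0.0526).

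**Figure D3:**
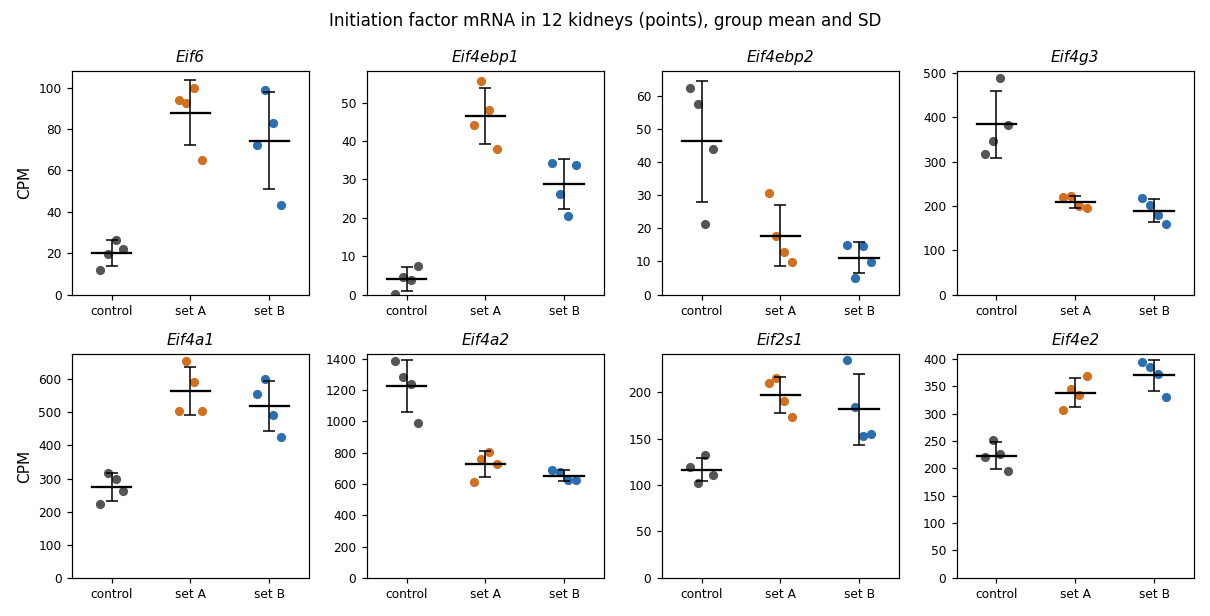
Level in CPM (linear y axis from 0) of 8 members in each kidney (points) of the control group, set A and set B (x axis), with the group mean (thick line) and SD (bars, n = 4). Eif6, Eif4ebp1, Eif4a1, Eif2s1 and Eif4e2 are higher in every ischemic kidney than in any control, Eif4g3 and Eif4a2 are lower in every ischemic kidney, and for Eif4ebp2 the lowest control (21.4 CPM) overlaps with set A.

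In the eIF2 family, the alpha subunit gene Eif2s1, whose product is the target of the stress kinases, rose in both sets. It measured 119.8, 103, 132 and 111 CPM in control kidneys, 209.8, 216, 191 and 173 CPM in set A kidneys and 235, 184, 153 and 155 CPM in those of set B. All ischemic kidneys lay above all controls, and the log2 fold change was 0.74 ± 0.15 in set A (adjusted p = 0.00136) and 0.62 ± 0.15 in set B (adjusted p = 0.00546). The beta subunit gene Eif2s2 lay between 30.4 and 62.8 CPM over the 12 kidneys and was not called. The gamma subunit is encoded by Eif2s3x on the X chromosome and Eif2s3y on the Y chromosome. Eif2s3x measured 14.9, 14.8, 13.96 and 13.8 CPM in control kidneys, 9.02, 20.1, 14.6 and 10.7 CPM in set A kidneys and 6.86, 22.6, 8.10 and 11.3 CPM in those of set B. Eif2s3y measured 44.3, 59.3, 56.3 and 46.1 CPM in control kidneys, 64.4, 73.8, 46.9 and 70.3 CPM in set A kidneys and 66.4, 71.9, 56.5 and 47.2 CPM in those of set B. Both overlapped between the groups, and neither was called. Their log2 ratio (Eif2s3x to Eif2s3y) was -1.83 ± 0.21 in controls, -2.28 ± 0.58 for set A and -2.45 ± 0.72 for set B (SD, n = 4 each), with exact permutation p of 0.314 and 0.2 and adjusted p of 0.557 and 0.5.

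The exchange factor eIF2B has 5 subunits. Against control, 2 of their genes were called higher for set A and 1 for set B, beside 10.5% and 10.9% of all genes tested. Eif2b3, the gamma subunit gene, measured 6.48, 3.68, 5.41 and 6.26 CPM in control kidneys, 10.1, 21.4, 13.8 and 13.4 CPM in set A kidneys and 15.1, 10.9, 8.54 and 11.3 CPM in those of set B. The groups did not overlap with the controls in either set, and the log2 fold change was 1.40 ± 0.39 in set A (adjusted p = 0.013) and 1.05 ± 0.39 in set B (adjusted p = 0.0611), where it did not pass. Eif2b5, which encodes the catalytic epsilon subunit, measured 42.6, 31.8, 25.7 and 35.9 CPM in control kidneys, 55.9, 49.2, 50.9 and 38.3 CPM in set A kidneys and 54.8, 47.2, 60.6 and 42.7 CPM in those of set B. It passed in set B (0.57 ± 0.20, adjusted p = 0.0479) and not in set A (0.49 ± 0.20, adjusted p = 0.0947). Eif2b4 lay between 57.3 and 74.9 CPM in controls and between 80.1 and 95.2 CPM in set A (0.47 ± 0.17, adjusted p = 0.0495). Eif2b1 and Eif2b2 were not called. Eif2b2 had 1.11 CPM in set B replicate 4 and between 20.6 and 29.2 CPM in the other set B kidneys, a value singled out after it was seen. The set A call of Eif2b3 was lost without control replicate 2 (adjusted p = 0.0502) or set A replicate 2 (0.0657). The set A call of Eif2b4 was lost without any 1 of control replicates 1, 2 and 4, set A replicates 2, 3 and 4 and set B replicates 1, 2 and 3 (0.0603 to 0.131), and with no filter on low counts or with the replicate block (0.0788 and 0.0522). The set B call of Eif2b5 was lost without any 1 of control replicates 2, 3 and 4, set A replicates 2, 3 and 4 and set B replicates 1, 2 and 3 (0.0527 to 0.168), and with no filter, with only the compared groups in the fit or with the replicate block (0.0615 to 0.0714).

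Of the kinases that phosphorylate eIF2 alpha, Eif2ak4, which encodes the amino acid sensor GCN2, measured 35.1, 23.3, 15.3 and 19.3 CPM in control kidneys, 54.5, 42.7, 38.4 and 31.8 CPM in set A kidneys and 49.9, 23.8, 50.1 and 35.4 CPM in those of set B. Set B replicate 2 and set A replicate 4 lay within the range of the controls. Eif2ak4 rose in set A (0.83 ± 0.28, adjusted p = 0.0381) and was at 0.76 ± 0.28 in set B (adjusted p = 0.0583). The set A call was lost without any 1 of control replicates 2, 3 and 4 and set A replicates 1, 2 and 3 (adjusted p between 0.0600 and 0.132). Eif2ak1, the haem-regulated kinase, ranged from 17.3 to 23.2 CPM in controls, from 6.87 to 17.2 CPM in set A and from 6.05 to 20.3 CPM in set B, and was not called (-0.81 ± 0.38, adjusted p = 0.145 and -0.54 ± 0.38, adjusted p = 0.374). Eif2ak3, the endoplasmic reticulum stress kinase PERK, stayed between 0.821 and 10.4 CPM and was not called. Eif2ak2, the double-stranded RNA sensor PKR, was left out of the members with a mean of 0.397 CPM. Its counts were 0, 0, 0 and 5 in controls, 40, 0, 18 and 0 in kidneys of set A, and 19, 0, 47 and 0 in kidneys of set B. In each ischemic set, 2 kidneys thus held all of its counts. Eif2a and Eif2d, which deliver initiator tRNA by routes that do not need eIF2, overlapped between all groups and were not called. By mean level per exon length, Eif2c1 was the highest row under an eIF2 symbol in control kidneys, but below Eif2s1 and Eif2b4 in both ischemic sets. The control means per kilobase were close, at 25.4 ± 2.8 CPM for Eif2c1, 24.2 ± 3.1 for Eif2b4 and 23.5 ± 2.5 for Eif2s1 (SD). Eif2c1 measured 221, 230.03, 180.4 and 195 CPM in control kidneys, 185, 156, 192 and 192 CPM in set A kidneys and 181, 186, 172 and 201 CPM in those of set B and was not called (-0.21 ± 0.13, adjusted p = 0.276 and -0.18 ± 0.13, adjusted p = 0.368).

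eIF3 is built from an octamer of the a, c, e, f, h, k, l and m subunits, a module of b, g and i, and the peripheral subunit d. Its genes did not move together. Eif3d, whose product contacts the mRNA, measured 343, 332, 360.4 and 412 CPM in control kidneys, 685, 747, 632 and 615 CPM in set A kidneys and 668, 709, 643 and 491 CPM in those of set B. It lay above the controls in all 8 ischemic kidneys, with a log2 fold change of 0.86 ± 0.13 in set A (adjusted p = 5.31e-05) and 0.77 ± 0.13 in set B (adjusted p = 0.000166). Eif3b, a scaffold of the smaller module, measured 128, 146, 131 and 135 CPM in control kidneys, 221, 270.4, 243 and 193 CPM in set A kidneys and 221, 271, 191 and 233 CPM in those of set B. It too was free of overlap, with log2 fold changes of 0.75 ± 0.14 (adjusted p = 0.000435) and 0.74 ± 0.14 (adjusted p = 0.000531). The large octamer subunits Eif3a and Eif3c rose by less. Eif3a measured 573, 501, 535 and 589 CPM in control kidneys, 857, 715, 777 and 678 CPM in set A kidneys and 761, 845, 768 and 688 CPM in those of set B, with log2 fold changes of 0.44 ± 0.11 (adjusted p = 0.0071) and 0.46 ± 0.11 (adjusted p = 0.005). Eif3c measured 470.3, 491, 464 and 482 CPM in control kidneys, 698, 735, 635 and 564 CPM in set A kidneys and 717, 603, 673 and 573 CPM in those of set B, with log2 fold changes of 0.44 ± 0.11 (adjusted p = 0.00736) and 0.41 ± 0.11 (adjusted p = 0.0127). Neither overlapped with the controls. The set B call of Eif3c was lost without control replicate 1 (adjusted p = 0.0523) or set B replicate 1 (0.0674).

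Eif3h, which encodes an octamer subunit, went the other way in set A. It measured 196, 199, 277 and 217 CPM in control kidneys, 152, 179.8, 149 and 151 CPM in set A kidneys and 213, 197, 201 and 144 CPM in those of set B. Set A lay below the controls throughout, while set B overlapped with them. The log2 fold change was -0.52 ± 0.16 in set A (adjusted p = 0.0184) and -0.26 ± 0.15 in set B (adjusted p = 0.275). The set A call was lost without control replicate 3, set A replicate 1 or set A replicate 3 (adjusted p between 0.0656 and 0.0786). The remaining 7 subunits (e, f, g, i, k, l and m) overlapped with the controls in both sets and were not called, with log2 fold changes from -0.12 (Eif3k) to 0.62 (Eif3g) in set A and from -0.15 (Eif3e) to 0.56 (Eif3g) in set B. The rows Eif3j1 and Eif3j2, nearly identical copies of the loosely bound subunit j, had no count in any kidney. Reads that match both copies could have been left uncounted, and how they were treated is not given in the sources used here.

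**Figure D4:**
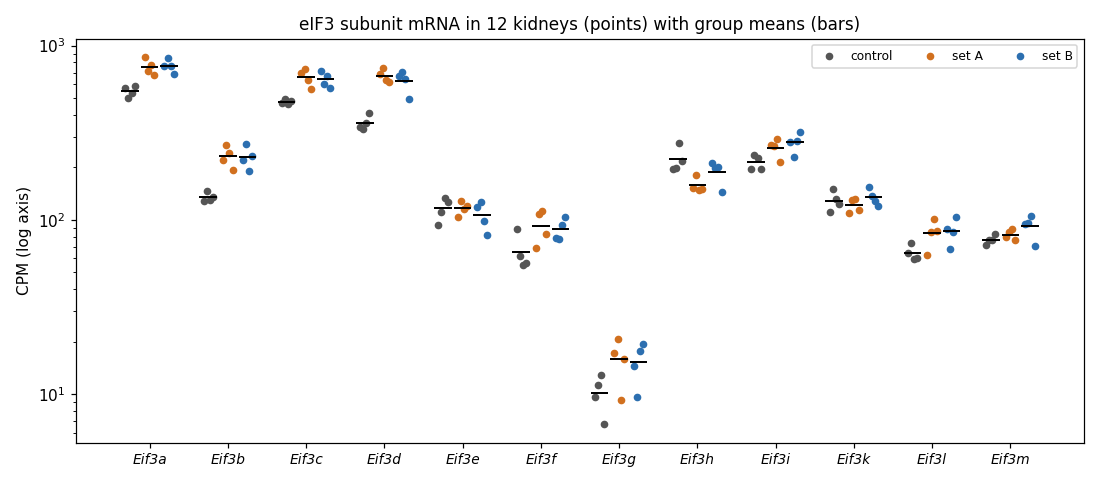
Level in CPM (logarithmic y axis) of the 12 eIF3 subunit genes (x axis) in each control (grey), set A (orange) and set B (blue) kidney, with group means as bars. The 8 ischemic points of Eif3a, Eif3b, Eif3c and Eif3d lie above the 4 control points, the set A points of Eif3h lie below them, and the points of the other 7 subunits overlap.

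Eif6, which encodes the factor that keeps the large ribosomal subunit from joining the small one too early and that also serves the making of large subunits, rose more than any other called member except Eif4ebp1. It measured 11.7, 19.7, 26.5 and 22.01 CPM in control kidneys, 94.1, 92.7, 100.04 and 64.9 CPM in set A kidneys and 72.4, 98.8, 82.98 and 43.3 CPM in those of set B. The lowest ischemic kidney, set B replicate 4, stood well above the highest control. The log2 fold change of Eif6 was 2.10 ± 0.27 in set A (adjusted p = 8.69e-06) and 1.87 ± 0.27 in set B (adjusted p = 3.25e-05), and the mean level was 4.4-fold and 3.72-fold that of the controls. Exons of the annotated gene Gm16098 overlap Eif6 on the other strand, and the strand setting of the counting is not given in the sources used here.

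Eif5a encodes the hypusine-bearing factor eIF5A, known for helping the ribosome over difficult stretches of sequence in elongation. It measured 5421, 6315, 6112 and 5543 CPM in control kidneys, 7392, 8772, 8378 and 7319 CPM in set A kidneys and 9735, 8395, 7596 and 6817 CPM in those of set B. All 8 ischemic kidneys lay above the controls, and the log2 fold change was 0.42 ± 0.11 in set A (adjusted p = 0.00966) and 0.45 ± 0.11 in set B (adjusted p = 0.00529). On the scale of CPM per kilobase of exon, which allows levels to be compared between genes, Eif5a had the highest control mean of the members at 2460 (range 2280 to 2657), followed by Eif4g2 at 2018 (1813 to 2355), and the ranges of these neighbours overlapped. Eif4b followed at 497 (451 to 537), apart from both. Its relative Eif5a2 ranged from 0 to 1.95 CPM in controls and from 0 to 6.25 CPM in the ischemic kidneys and was not called.

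The start codon factors did not pass the test. Eif1a measured 14.5, 14.1, 5.45 and 7.95 CPM in control kidneys, 15.4, 25.2, 24.4 and 10.9 CPM in set A kidneys and 17.5, 29.99, 23.7 and 9.11 CPM in those of set B. Eif1ax, which encodes the same kind of factor from the X chromosome, measured 117, 94.7, 148 and 102 CPM in control kidneys, 144, 164, 150.1 and 175 CPM in set A kidneys and 170.1, 153, 146 and 105 CPM in those of set B. Both overlapped between controls and ischemic kidneys. For Eif1a the log2 fold change was 0.83 ± 0.41 in set A (adjusted p = 0.174) and 0.92 ± 0.41 in set B (adjusted p = 0.123), and that of Eif1ax 0.43 ± 0.17 (adjusted p = 0.0868) and 0.29 ± 0.17 (adjusted p = 0.272). Their log2 ratio (Eif1a to Eif1ax) was higher by 0.41 in set A and 0.60 in set B, with exact permutation p of 0.514 and 0.343 and adjusted p of 0.701 and 0.557. Eif1, Eif1ad, Eif1b, Eif5 and Eif5b overlapped as well, with log2 fold changes from 0.18 (Eif5) to 0.43 (Eif1ad) in set A and from 0.02 (Eif1) to 0.67 (Eif1ad) in set B. All 10 members of this remaining group had a positive log2 fold change in both sets, which share their controls, though only Eif6 and Eif5a were called. Of the 11664 genes tested, 5730 were positive in set A and 5736 in set B.

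By CPM ranges alone, 15 members lay wholly above and 5 wholly below the controls in set A, beside 28.5% of all genes tested that did not overlap in either direction, and 14 lay above and 3 below in set B, beside 26.8%. Members that did not overlap and yet missed the threshold included Eif2c2, higher in both sets (0.21 ± 0.12, adjusted p = 0.274 and 0.25 ± 0.12, adjusted p = 0.178), and Eif2ak1, lower in set A.

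Start regions were then read for every member with a start sequence at hand, whether or not it was called. RefSeq sequences (GRCm38.p6) around the annotated start were at hand for 44 of the 55 members. Those of Eif1a, Eif2b3, Eif2c2, Eif3e, Eif3h, Eif3i, Eif4e3, Eif4ebp1, Eif4ebp3, Eif4g2 and Eif6 were not used here. The letters CACGTG, the E-box bound by MYC, MAX and USF proteins, read the same on both strands and were present within 250 bases before a start of 9 of the 44 members (20.5%), and of 7.61% of 17491 protein-coding genes with such a sequence. A match describes the letters and not binding. Of these 9, Eif4a1, Eif4h and Eif5a rose in both sets, and Eif1b, Eif3f, Eif3k, Eif4e, Eif4g1 and Eif5a2 were not called in either. Of the 35 members without the motif, 9 were higher and 4 lower in set A, and 7 higher and 3 lower in set B, beside the 10.5% and 10.9% of all genes called higher. The windows of the 3 genes that rose, and of the uncalled eIF4F members Eif4e (the window nearer its start) and Eif4g1 beside them, are shown to compare their sequence, 5′ to 3′ on the gene's strand, with the motif in capitals.
Eif4a1 (chr11:69672597-69672622, minus strand): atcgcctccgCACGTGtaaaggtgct
Eif4h (chr5:134639490-134639515, minus strand): gccgccgcacCACGTGggccgcagag
Eif5a (chr11:69920793-69920818, minus strand): gctgcgcggcCACGTGaggtggggga
Eif5a, upstream start (chr11:69921445-69921470, minus strand): ggggcggggtCACGTGtgtgcgtcat
Eif4e (chr3:138527194-138527219, plus strand): acacgtccgtCACGTGggcaggagcc
Eif4g1 (chr16:20672663-20672688, plus strand): cagtgggtgtCACGTGatggggcgga
The flanking bases differ among all 6 windows. The median log2 fold change of the 9 members with the motif was 0.36 for set A and 0.39 for set B, beside 0.29 in each set for the 35 without it.

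Many mRNAs of the translation apparatus begin with a run of pyrimidines, the terminal oligopyrimidine (TOP) element, through which mTORC1 controls their translation. The element was sought at annotated starts only, and the first transcribed base in these kidneys was not measured. Members without a run at an annotated start may thus still carry the element. A start with C followed by at least 4 more C or T was found at a start of 2 of the 44 members (4.55%) and of 2.67% of the 17491 protein-coding genes. The first 20 bases of these are shown with the run in capitals.
Eif3f (chr7:108934415-108934434, plus strand): CTCTCTTTCTCggcaagatg
Eif2s3x (chrX:94212632-94212651, minus strand): CTTTTCTCTCCgagcaagat
Neither gene was called (0.48 ± 0.19, adjusted p = 0.0765 and 0.41 ± 0.19, adjusted p = 0.132 for Eif3f, -0.10 ± 0.40, adjusted p = 0.922 and -0.25 ± 0.40, adjusted p = 0.757 for Eif2s3x). The letters TGATGNAAT, an ATF4-type element searched on both strands, and TGACGTCA, the CRE, were in none of the 44 members' windows and in those of 0.772% and 2.20% of the protein-coding genes.

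Other genes of the pathway were counted from lists. Of 19 tested partners of initiation, 4 rose and 3 fell in set A, and 2 rose and 2 fell in set B, where 22.3% and 22.8% of all genes were called in either direction. Pabpc1, the poly(A)-binding protein that meets eIF4G at the closed mRNA loop, rose (log2 fold change 0.77 and 0.65), as did Gnb2l1, the older symbol of the ribosome protein RACK1 (0.65 and 0.75). The regulators of Pabpc1, Paip1 (-0.62 and -0.74) and Paip2 (-0.65 and -0.77) fell. Pdcd4, an inhibitor of eIF4A, fell in set A (-0.79) and was at -0.38 in set B. Of 15 genes around mTORC1, the kinase gene Mtor fell in both sets (-1.37 and -1.31), Rps6ka1 rose in set B (0.82), and 14 and 13 were not called. Of 11 elongation and termination factors, Eef1g (0.80 and 0.87) and Eef1b2 (0.61 and 0.61) rose in both sets, and in set B Etf1 rose (0.41) and Eef2 fell (-0.41). Of 7 mitochondrial translation factors, Tufm fell in both sets (-0.78 and -0.86) and Gfm1 in set A (-1.03), and none rose. The medians of these 4 lists were 0.03, -0.11, 0.27 and -0.78 in set A and 0.08, 0.02, 0.28 and -0.81 in set B.

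Between the ischemic sets, no initiation factor gene passed the test. In set B against set A, 0 of 55 members were called by edgeR's quasi-likelihood test or by DESeq2, where 0.00857% of all genes tested were called in edgeR and 0.331% in DESeq2, and 1 member had an unadjusted p below 0.05 by each tool, beside 5.03% of all genes in edgeR and 5.71% in DESeq2. By edgeR that member was the Argonaute row Eif2c4, named for this alone, with 7.41, 10.1, 11.2 and 8.70 CPM in control kidneys, 20.7, 10.3, 16.6 and 21.1 CPM in set A kidneys and 11.1, 4.66, 13.6 and 4.23 CPM in those of set B and a log2 difference of -1.03 ± 0.43 (SE, adjusted p = 0.941). The members' log2 differences ran from -1.03 to 0.81 with a median of -0.04, beside -0.01 over all genes. For Eif4ebp1 the difference was -0.69 ± 0.55, for Eif4ebp2 -0.67 ± 0.39, for Eif6 -0.23 ± 0.26 and for Eif4a1 -0.11 ± 0.15 (SE). By CPM ranges, 1 member (Eif4ebp1) lay wholly lower and 0 wholly higher in set B, beside 2.65% of all genes that did not overlap. A p that misses the threshold does not show that the sets are alike at these sizes.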

How the data were processed

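RNA of 12 kidneys was sequenced as single reads from stranded mRNA libraries. The authors aligned reads against mm10 (STAR), counted them per gene (HTSeq) and deposited these raw counts, without normalization, with FastQC and edgeR also named in the submitters' processing notes. Their versions, the annotation and the strand setting are not given in the sources used here. CPM was computed from column sums.

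The counts were fitted in edgeR 4.0.16 (R 4.3.3) with 1 coefficient per group over all 12 kidneys, after its default low-count filter (minimum count 10, minimum total 15), which left 11664 genes, and TMM scaling (factors 0.968 to 1.03). The comparisons used its quasi-likelihood F-test, two-sided, with Benjamini-Hochberg adjustment over all genes and a threshold of 0.05. The common biological coefficient of variation was 0.762. Ratios of counts within a kidney were compared by exact permutation tests. Exon lengths came from GENCODE M21 (GRCm38, the same build as mm10). The procedure was tested on simulated counts. Other work used Python 3.11.15, pandas 2.3.3, NumPy 2.4.6, SciPy 1.17.1 and matplotlib 3.10.9. Replicates are kidneys of separate mice by the series' design text. The replicate numbers are taken from the titles.

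The members and lists were chosen with earlier results of these data known. Values in every kidney were given for the 20 called members with the smallest adjusted p, the most abundant member of each family by mean CPM and the members of 5 ratios. The alternatives were DESeq2 1.42.0, RLE scaling, no filter, a filter of over 1 CPM in 4 kidneys or more, a fit of only the compared groups, limma-trend (limma 3.58.1, prior count 2), a block for replicate number, 0.5 added to each count of a ratio, and leaving out each kidney.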

Additional observations from a re-analysis of the deposited data

Results flagged for a closer look

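Of 99 groups of 4 kidneys tested, 2 held a kidney far from the other 3 by Dixon's criterion at its 95% level, and chance gives about 1 in 20. Eif3h measured 179.8 CPM in set A replicate 2 and between 148.5 and 151.9 CPM in the other set A kidneys. The log2 ratio of Eif4g2 to Eif4g1 was 5.41 in control replicate 3 and between 5.002 and 5.06 in the other controls. The first lies in a group in which Eif3h was called lower than control.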

How the results depend on the processing

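No called member changed direction under any alternative run. Between the ischemic sets, 4 ratios of small difference changed sign when a kidney was left out, with log2 differences of -0.04 to 0.09 for Eif4a1 to Eif4a2, -0.10 to 0.39 for Eif1a to Eif1ax, -0.44 to 0.10 for Eif2s3x to Eif2s3y and -0.10 to 0.11 for Eif4g2 to Eif4g1. Of the 20 calls in set A, 12 held under every alternative, and of the 15 in set B, 12 held. Outside the fits that left out a kidney, every count of called members was within 1.5 times the value reported, with 12 to 16 members higher and 4 or 5 lower in set A, 10 to 15 higher and 3 lower in set B, and 0 in set B against set A. Leaving out each kidney gave 10 to 16 higher and 2 to 5 lower in set A, 9 to 14 higher and 3 to 4 lower in set B, and 0 between the sets. The set A count of lower members was 3 without control replicate 1, 2 or 3 or set A replicate 1, and 2 without set A replicate 3. The log2 ratio of Eif4a1 to Eif4a2 differed from control by 1.63 to 1.87 (set A) or 1.65 to 1.89 (set B) when a kidney was left out, and that of Eif4ebp1 to Eif4e by 2.97 to 5.34 or 2.27 to 4.64. The median of all genes moved by at most 0.03 on the log2 scale under RLE scaling.

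The replicate numbers gave no sign of a pairing of the kidneys. The 12 correlations of same-numbered kidneys lay between -0.06 and 0.05, none over 0.1, beside -0.06 to 0.08 for the other 36 pairs. A kidney correlated best with its own number in 2 of 24 cases. Whether this check would detect 2 kidneys of the same animal was not tested. With the replicate block, 12 members were higher and 4 lower in set A, and 12 higher and 3 lower in set B.

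Low counts limit what can be said of some members. Eif2ak2, Eif5a2 and the lowest control kidney of Eif4ebp1 rest on few counts.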
